A study of Drosophila mojavensis with 172 samples.

Results

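The comparison concerns 10-day-old females of the desert fly Drosophila mojavensis, whose larvae feed in rotting cactus, and sets a Baja California population against a mainland population. All arrays whose title gives the 10-day stage were taken, which gave 12 of 172 arrays. Las Bocas females (LB) were wild-type flies of the Sonoran source dated 2009 (LB09), and Punta Prieta females (PP) were wild-type flies of the Baja source dated 2008 (PP08). Each population had 6 arrays, 4 of females reared on laboratory medium made with agria cactus and 2 of females reared on organ pipe medium. The labels describe each group as adult females of normal phenotype grown in bottle cultures and name no dissection, no mating status and no number of flies per array. One-colour NimbleGen arrays gave a log2 signal for each of 14528 transcripts, and 1 log2 unit is a factor of 2. The transcripts carry identifiers that were matched to no gene name here, so they are named by identifier and no function is given for them.

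A female fly leaves the pupal case with immature ovaries. Over the following days the fat body and ovarian follicle cells produce yolk and eggshell proteins, oocytes grow, and nurse cells load them with maternal RNA that is later found in the laid egg. Pace of maturation, diet and mating state all alter how far this programme has run in females of a given age. The question asked of the 10-day females was therefore how they differed between populations, and how much of that difference ran in the direction that separates newly eclosed from 6-day females.

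Array medians at 10 days lay between 11.20 and 11.40 log2, and no pair of the 172 arrays held identical values. Arrays of the same group correlated at 0.952 to 0.993 across transcripts, those of the same population on the other diet at 0.904 to 0.994, and those of different populations at 0.851 to 0.978. Replicate 1 of LB on organ pipe stood apart. Its mean absolute deviation from the other LB arrays was 0.441 log2, against 0.198 to 0.297 for the other 11 arrays within their populations. Its best match among stage means of other groups was 3 days, with a correlation of 0.950. Replicate 1 of PP on agria correlated more closely with replicate 2 of PP on organ pipe, at 0.994, than with its own group, at a mean of 0.961. It thus stood apart from its own group but not from its population. Its mean absolute deviation from the other PP arrays, 0.222 log2, was the lowest in PP. The count over all transcripts, the score and the list counts below are therefore also given without these 2 arrays. The labels do not state whether replicates are separate cultures, and p-values therefore reflect only the spread among these arrays, which may be technical.

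PP and LB females differed in a large share of the measured transcripts at 10 days, and more by population than by diet. With diet as a block, 4441 of 14528 transcripts (30.6%) differed between PP and LB at an adjusted p under 0.05 (limma with Benjamini-Hochberg adjustment), 2353 of them (16.2%) higher and 2088 (14.4%) lower in PP. Population took 34.5% of the variance over all transcripts, diet 19.4%, their interaction 4.60%, and 41.5% lay within groups. Most differences were moderate. The median absolute difference of the called transcripts was 0.56 log2, 2738 of them differed by at least 0.5 log2 and 273 by at least 1 log2. Of those 273, 83 were higher and 190 lower in PP. For 1254 transcripts (8.63%) the 6 PP arrays did not overlap the 6 LB arrays, with 712 (4.90%) entirely above and 542 (3.73%) entirely below. Without the 2 arrays that stood apart 2438 transcripts were called, 1375 higher and 1063 lower in PP. Leaving out replicate 2 of PP on organ pipe gave 2520 calls, leaving out replicate 4 of LB on agria 2555, and leaving out replicate 2 of PP on agria 2793. In such bulk RNA, fewer cells of a type and less RNA per cell cannot be told apart.

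The 2 called transcripts with the greatest excess in PP were FBtr0163650 and FBtr0166499. FBtr0163650 read 14.24, 9.79, 9.53 and 9.43 log2 on the 4 LB agria arrays and 9.09 and 12.77 on the 2 LB organ pipe arrays. In PP it read 14.23, 15.07, 14.57 and 14.95 on agria and 15.45 and 15.08 on organ pipe. All PP arrays were thus high, LB arrays were split between low and high, and replicate 1 of LB on agria lay just above the lowest PP array. The difference was 4.08 (SE 0.75, adjusted p = 0.00383). FBtr0166499 showed the same split, with LB values of 14.31, 9.87, 9.47 and 9.45 on agria and 10.22 and 15.10 on organ pipe, while the PP arrays spanned 15.15 to 15.54. Its groups did not overlap, and the difference was 3.97 (SE 0.85, adjusted p = 0.00716).

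The 2 transcripts with the greatest deficit in PP separated the populations in every array. FBtr0167365 read 13.66 to 14.92 log2 in LB, with a median of 14.21, and 10.12 to 12.37 in PP, with a median of 11.18. The difference was -3.13 (SE 0.33, adjusted p = 0.000146). FBtr0169031 read 13.75 to 14.76 in LB and 10.76 to 12.93 in PP, a difference of -2.63 (SE 0.33, adjusted p = 0.000466). Neither pair of ranges overlapped.

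**Figure D1:**
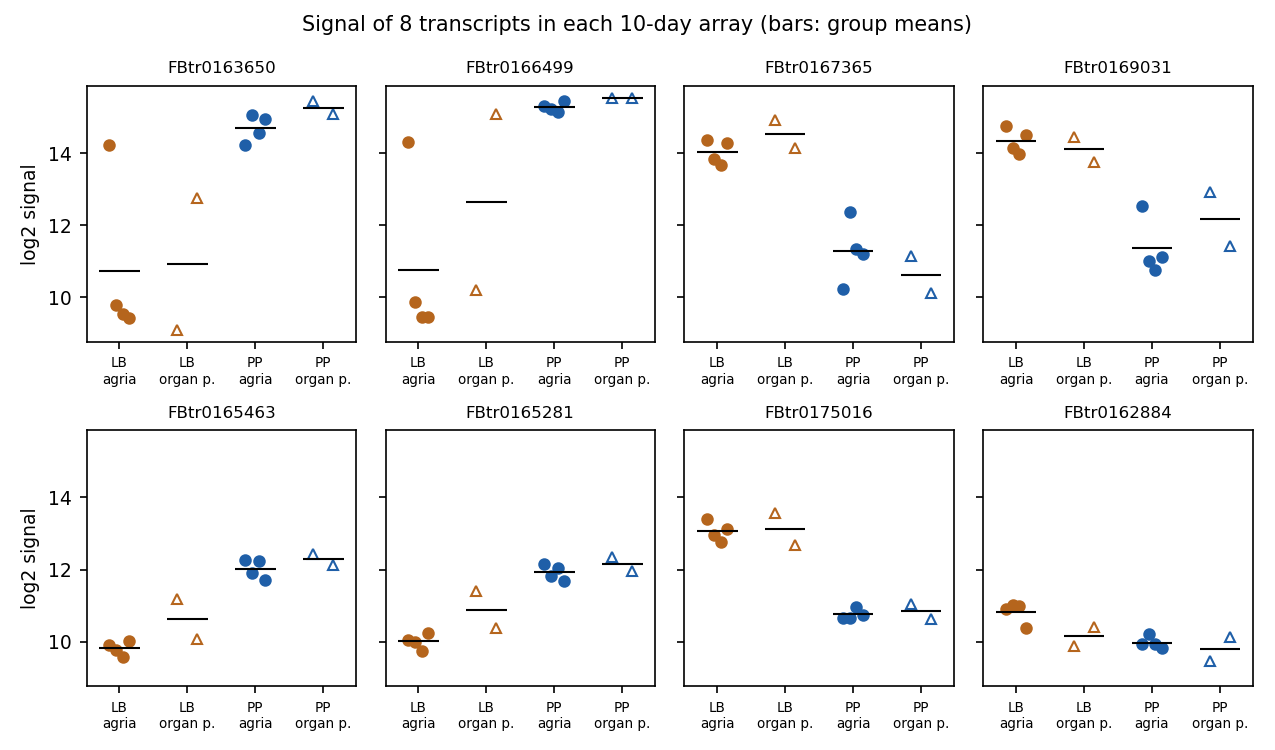
Log2 signal of 8 transcripts in each of the 12 arrays of 10-day females, by population (LB, Las Bocas; PP, Punta Prieta) and diet, with agria as filled circles, organ pipe as open triangles and group means as bars. The upper 4 have the greatest differences between populations and the lower 4 the greatest differences once the maturation score is in the model. FBtr0163650 and FBtr0166499 are low in 4 LB arrays and high in the other 2. Of the 8 transcripts, the populations overlap only for FBtr0163650 and FBtr0162884.

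The split among LB arrays also showed in the mean of the largest differences, though not in each of them. Called transcripts at least 2 log2 higher in PP numbered 33, a group picked by its values and described here without a test. Its mean signal was 11.70, 9.83, 9.70 and 9.77 log2 on LB agria replicates 1 to 4 and 10.03 and 12.02 on LB organ pipe replicates 1 and 2. The PP arrays lay between 13.03 and 13.68. On this mean LB agria replicate 1 and LB organ pipe replicate 2 were therefore intermediate. The other 4 LB arrays sat close to newly eclosed females, whose arrays of both populations lay between 9.42 and 10.66. This low level was not particular to newly eclosed females. Egg arrays lay between 9.86 and 10.28, and the lowest 6-day arrays read 9.78 in LB and 9.86 in PP. Single members departed from the split seen in the mean. On LB agria replicates 1 to 4, FBtr0163649 read 13.22, 12.63, 12.89 and 11.04 log2, and FBtr0166496 read 11.33, 11.36, 11.42 and 10.87. Of the 33 transcripts, 31 were higher at 6 than at 0 days, 29 were on the list that rose over that interval, and none was on the list shared by eggs and mature females described below. Over all 14528 transcripts, the rising list holds 1002 and the list shared by eggs and mature females 1139. In 19 of the 33 the 6 PP arrays lay entirely above the 6 LB arrays, beside 4.90% of all transcripts. The choice of the 33 by their 10-day values favours such separation.

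At 3 and 6 days the same 33 transcripts also varied widely between arrays. Their mean ran from 9.78 to 14.01 log2 over the LB arrays and from 9.86 to 13.46 over the PP arrays at 6 days, and from 9.47 to 12.92 in LB and 9.58 to 13.45 in PP at 3 days. At 14 days it ran from 11.51 to 13.05 in LB and 10.33 to 13.00 in PP, and at 18 days from 10.47 to 12.79 and from 10.06 to 12.10. The median difference between PP and LB over the group was 0.81 in 3-day, 0.08 in 6-day and 2.64 in 10-day females. It was -0.85 in 14-day, -1.29 in 18-day and 1.92 in 24-day females. The sign of the median thus turned among the later ages. Only 5 called transcripts were at least 2 log2 lower in PP, and 2 of these, FBtr0167365 and FBtr0167366, were lower in PP at all 12 other stages too.

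The maturation direction was taken from 32 other arrays, 18 of newly eclosed and 14 of 6-day females, weighing the 4 combinations of population and diet equally. Between 0 and 6 days 1700 transcripts (11.7%) changed by at least 1 log2 at an adjusted p under 0.05 (limma), 1002 upward and 698 downward. With each array centred on its median these counts were 817 and 885, and the median of all transcripts moved by -0.100 log2. FBtr0174527 rose most, by 5.21 log2, and FBtr0163649 rose by 4.92. FBtr0170100 fell by 4.73 and FBtr0174004 fell by 4.68. At 10 days the 2 that rose differed between populations in opposite directions. FBtr0163649 read 9.10 to 13.97 in LB and 13.72 to 15.41 in PP, a difference of 2.39 (SE 0.65, adjusted p = 0.0162). FBtr0174527 read 12.64 to 13.85 in LB and 11.22 to 13.03 in PP, a difference of -0.86 (SE 0.28, adjusted p = 0.0324). The 2 that fell were low in both populations at 10 days, FBtr0170100 at 10.13 to 10.63 in LB and 10.17 to 10.49 in PP, and their population differences did not pass the test (adjusted p = 0.951 and 0.846).

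A maturation score placed each array between the mean of newly eclosed females, at 0, and that of 6-day females, at 1, over those 1700 transcripts. At 10 days the LB agria arrays scored 1.02, 1.09, 1.11 and 0.913, and the LB organ pipe arrays 0.753 and 1.05. The PP agria arrays scored 1.23, 1.27, 1.21 and 1.19, and the PP organ pipe arrays 1.18 and 1.21. LB females of 10 days thus stood near the 6-day mean, at 0.990 ± 0.136 (SD, n = 6), and PP females beyond it, at 1.21 ± 0.033 (SD, n = 6). Every PP array scored above every LB array. Averaged over the diets the difference was 0.240, with 0.191 on agria and 0.290 on organ pipe, and an exact two-sided permutation test of population labels within diet gave p = 0.00476, the smallest that its 420 arrangements allow. Without the 2 arrays that stood apart the difference was 0.164 (exact permutation p = 0.00952).

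**Figure D2:**
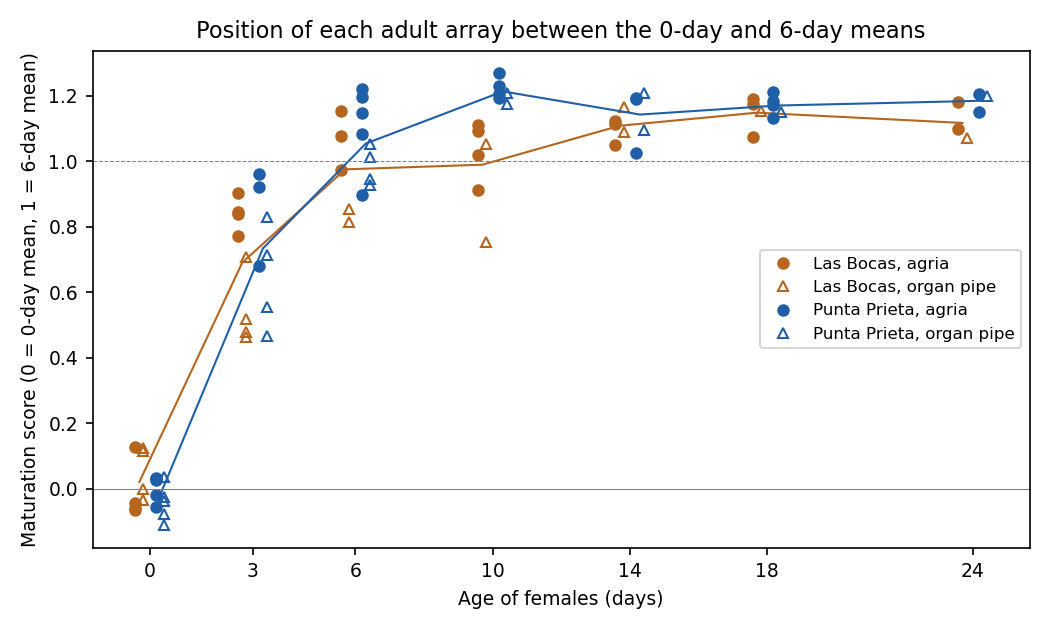
Maturation score of each array of adult females against age in days, on a scale where 0 is the mean of 0-day females and 1 that of 6-day females, with lines through the population means. At 10 days the 6 PP arrays lie between 1.18 and 1.27, above all 6 LB arrays at 0.753 to 1.11, while at the other ages the populations overlap.

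The populations overlapped in score at every other adult age. In order of age from 3 to 24 days, LB means were 0.691, 0.976, 0.990, 1.11, 1.15 and 1.12, and PP means were 0.734, 1.05, 1.21, 1.14, 1.17 and 1.19. Among the 5 ages whose arrays did not define the scale, the population difference passed the exact permutation test at 10 days only, with p = 0.0238 after adjustment over the 5 ages and 0.586 at each of the other 4. At 24 days the smallest p the design allows was 0.167. Whether the score difference itself changes with age was not tested.

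Of the 4441 transcripts called for population, 3759 (84.6%) differed in the same direction as they changed between 0 and 6 days. The share was 67.4% over all 14528 transcripts and 59.8% over those not called. It was 91.5% for transcripts higher in PP and 76.9% for those lower in PP. Among the 1700 maturation transcripts, 1402 (82.5%) leaned the same way, and of the 1047 of them that were called, 953 (91.0%). The alignment was partial in size. A line through 0 had a slope of 0.284, so that PP exceeded LB by about that fraction of the 0 to 6 day change, and it took 24.0% of the sum of squares of the population differences across all transcripts and 39.2% across the called ones. Pearson's r across the 14528 transcripts was 0.489. Transcripts share arrays and are not independent, so no p is given. The 10-day arrays took no part in the maturation direction, so both sides of this comparison rest on different arrays.

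**Figure D3:**
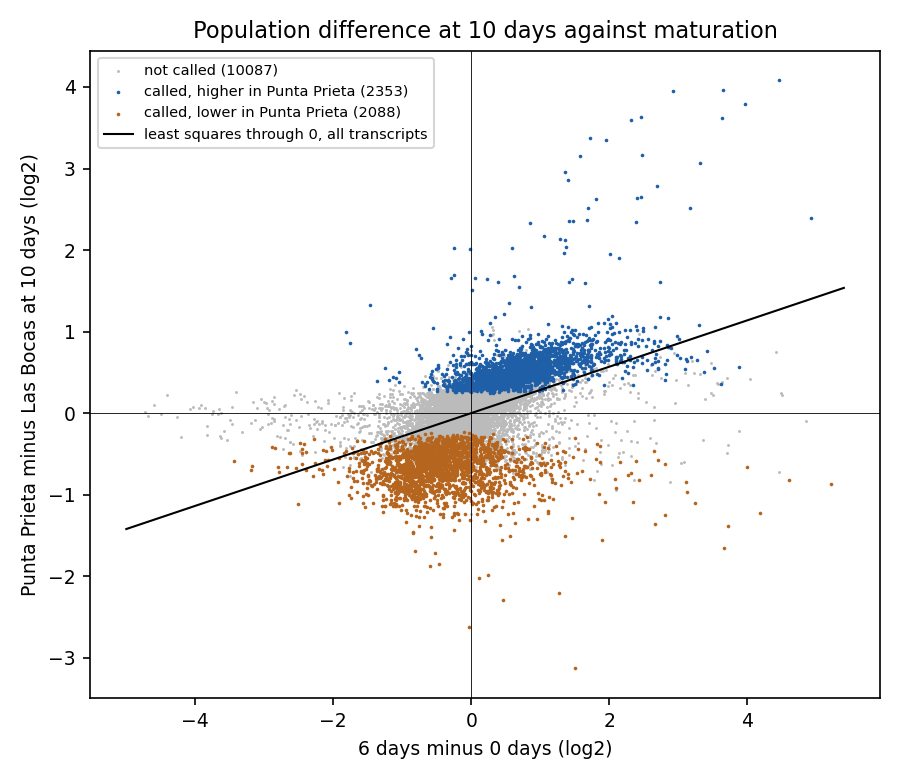
Difference between PP and LB at 10 days (log2, vertical) against the change from 0 to 6 days (log2, horizontal) for 14528 transcripts, with the 2353 called higher in PP in blue, the 2088 called lower in brown and the 10087 others in grey. The cloud tilts upward along a least-squares line of slope 0.284, and a spray of transcripts 2 to 4 log2 higher in PP lies to the right, above the line.

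Calls followed maturation in a graded way up to a change of 2 log2, and their share was lower beyond it. Transcripts that rose by 1 to 2 log2 between 0 and 6 days were higher in PP in 65.7% of 791 cases and lower in 7.71%. Those that rose by 2 log2 or more were higher in 56.9% of 211. Those that fell by 1 to 2 log2 were lower in PP in 49.6% of 567 cases and higher in 1.76%, and those that fell by more than 2 log2 were lower in 24.4% of 131, with none called higher. The median population difference of this last group was -0.14 log2, against -0.44 for those that fell by 1 to 2 log2. Among transcripts with a change of less than 0.25 log2 in either direction, 838 of 5341 (15.7%) were called, beside 30.6% of all transcripts. The sign of the small maturation change was shared by 60.7% of these 838 and by 52.0% of the 5341. A population difference at 10 days was thus also measured where maturation hardly moved the transcript.

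**Figure D4:**
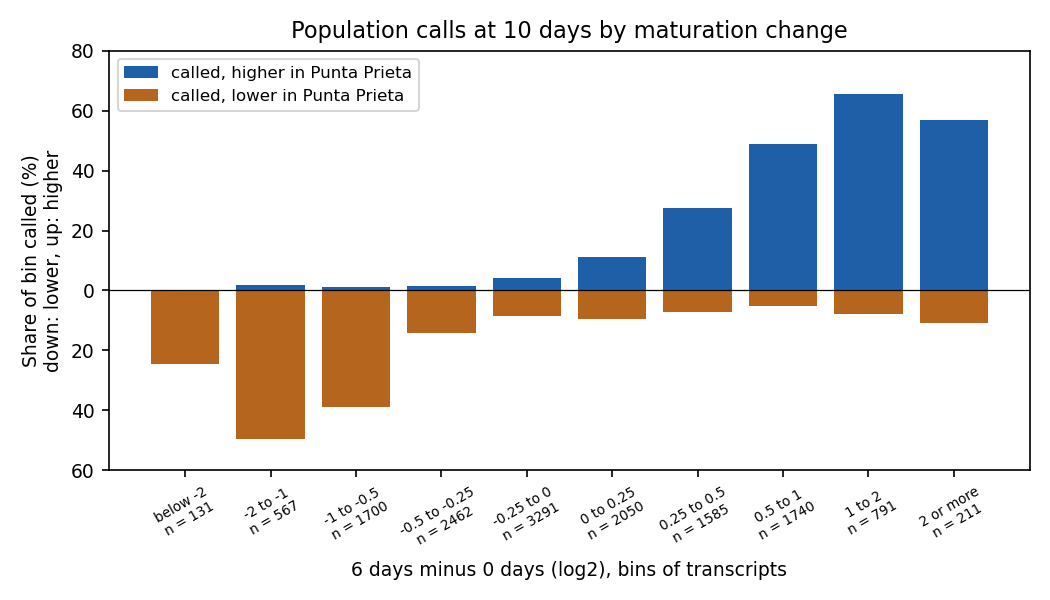
Share of transcripts called for population at 10 days (%, upward for higher in PP, downward for lower), in 10 bins of the change from 0 to 6 days (log2) with the number of transcripts in each. Calls higher in PP reach 65.7% in the bin from 1 to 2 and calls lower in PP 49.6% in the bin from -2 to -1.

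Among transcripts shared by eggs and mature females, most of those called were higher in PP and few were lower. This list holds 1139 transcripts at least 1 log2 higher in 6-hour eggs and in females of 6, 14, 18 and 24 days than in every larval and pupal stage, and no 10-day array was used to make it. At 10 days 643 of them were higher in PP and 5 lower, so that 56.9% were called beside 30.6% of all transcripts. The median difference was 0.42 log2, beside 0.03 over all transcripts, and 96.5% of the list had a positive difference. The mean of the list read 12.29, 12.54, 12.64 and 12.20 on LB agria, 11.70 and 12.38 on LB organ pipe, 12.70, 12.88, 12.75 and 12.70 on PP agria, and 12.57 and 12.69 on PP organ pipe. The ranges of the populations met, since the highest LB array exceeded the lowest PP array. Of the list, 384 also belong to the 1002 transcripts that rose between 0 and 6 days, so the counts of these lists overlap. Without the 2 arrays that stood apart 375 were higher and 1 lower in PP (33.0%), beside 16.8% of all transcripts called in that setting.

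Transcripts highest in eggs differed in few cases. Of 121 transcripts at least 1 log2 higher in 6-hour eggs than in every other stage, 15 were higher and 5 lower in PP, and 101 were not called. Their list mean lay between 9.89 and 9.99 log2 in LB and between 9.89 and 10.06 in PP. The median difference was 0.05 log2. The share called was 16.5%, beside 30.6% of all transcripts. The list was chosen for a lower signal in adults than in eggs, and the 10-day mean over all transcripts was 11.33 log2. This choice limits what the small share can show.

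Transcripts high in adults at every age were called only as lower in PP. The 77 transcripts at least 1 log2 higher in all 6 other adult ages than in eggs, larvae and pupae held 49 that were lower in PP and none that was higher, with a median difference of -0.67 log2. The share called was 63.6%, beside 30.6% of all transcripts. Their mean read 13.93, 13.68, 13.59 and 14.01 on LB agria, 13.91 and 13.54 on LB organ pipe, 12.80, 12.88, 13.44 and 13.59 on PP agria, and 13.36 and 12.72 on PP organ pipe. The overlap between populations was slight, at 13.54 to 13.59. From 0 to 6 days the median change of the list was 0.28 log2 upward, and 11 of the 49 were lower at 6 than at 0 days. The mean of the list was 13.38 in newly eclosed and 13.94 in 3-day females, and then 13.80, 13.64, 13.21 and 13.67 in females of 6, 14, 18 and 24 days. The median population difference of the list was 0.15 in 0-day, -0.07 in 3-day and -0.20 in 6-day females. In 14-day, 18-day and 24-day females it was -0.24, -0.62 and -0.14. Without the 2 arrays that stood apart 21 of the 77 (27.3%) were lower in PP and none was higher, beside 16.8% of all transcripts called in that setting.

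The transcripts that rose or fell with maturation were mostly called in the matching direction where they were called. The share called over all transcripts was 30.6% with all 12 arrays and 16.8% without the 2 that stood apart. Of 698 transcripts that fell between 0 and 6 days, 313 were lower and 10 higher in PP, with a median of -0.38 log2, and 178 and 11 without the 2 arrays that stood apart. Of the 1002 that rose, 640 were higher and 84 lower, with a median of 0.57 log2, and 378 and 39 without those arrays. Newly eclosed transcripts, 54 in all, had 12 lower and 1 higher in PP, which is 24.1%. Of 90 larval transcripts 8 were lower and 3 higher (12.2%), of 84 early pupal transcripts 13 were lower and 4 higher (20.2%), and of 177 late pupal transcripts 3 were lower and 4 higher (3.95%). None of these 4 shares exceeded that over all transcripts. The larval, early pupal and late pupal lists were also chosen for low adult signal, with 10-day means of 10.05, 10.19 and 9.45 log2. Their small shares are limited in the same way as that of the egg list. The medians of the larval, early pupal and late pupal lists lay within 0.02 log2 of 0 and those of the early and late pupal lists changed sign with the scaling of the arrays.

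**Figure D5:**
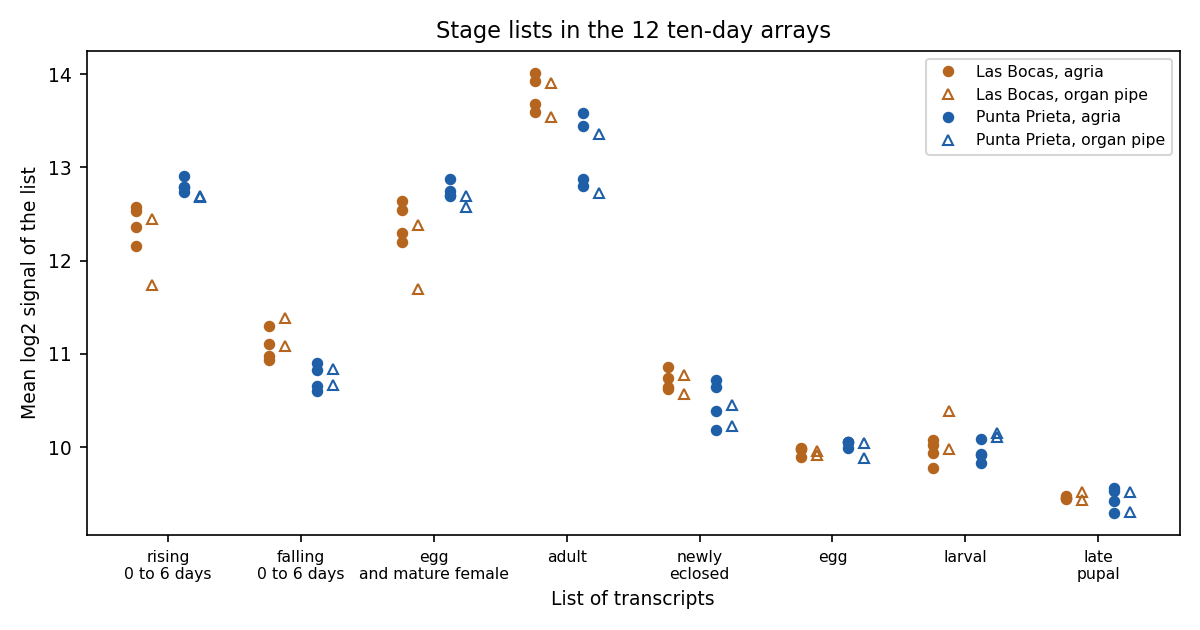
Mean log2 signal of 8 lists of transcripts on each of the 12 arrays of 10-day females, with agria as filled circles and organ pipe as open triangles. PP arrays lie above all LB arrays for the transcripts that rose from 0 to 6 days and below all LB arrays for those that fell. They lie mostly higher for the list shared by eggs and mature females and mostly lower for the adult list, with slight overlap in both. For the newly eclosed, egg, larval and late pupal lists the populations overlap.

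Other directions of adult change aligned with the population difference as well. The step from 3 to 6 days, taken alone, had a correlation of 0.645 across transcripts and took 41.6% of the sum of squares, and 94.8% of the called transcripts had its sign, against 74.8% of all transcripts. The step from 0 to 3 days had a correlation of 0.304 and took 9.23%, with shares of 76.6% and 62.3%. The change from 6 days to the mean of 14, 18 and 24 days had a correlation of 0.620 and took 38.5%, with 92.9% of called transcripts alike in sign, against 75.9% of all. With the 3 steps in 1 least-squares fit the slopes were 0.03, 0.59 and 0.55 in the order of age, and together they took 50.2%. These steps share 3-day and 6-day arrays with each other, and none with the 10-day females. The difference between organ pipe and agria at 3 and 6 days ran opposite to the population difference, with a correlation of -0.673. This diet direction took 45.3% of the sum of squares, more than any of the steps of age taken alone. Its sign was shared by 7.09% of the called transcripts, against 22.2% of all.

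With the maturation score of each array in the model, 18 transcripts (0.124%) were called for population by limma, 11 higher and 7 lower in PP, and 1785 at an unadjusted p under 0.05. With each array centred on its median the 18 calls split into 14 and 4, and after a repeated quantile normalization 14 calls split into 10 and 4. Score and population were close to each other, with a correlation of 0.809 given diet over the 12 arrays, and the median standard error grew by a factor of 1.47. Among the 4441 transcripts the median difference along their own direction went from 0.56 to 0.17 log2, and 95.2% of them shrank. They were chosen by their difference without the score, which favours such shrinkage. Over all transcripts the median absolute difference went from 0.229 to 0.172 log2. The slope on the 0 to 6 day change, over all transcripts, went from 0.284 to -0.015. Over the transcripts that define the score, fitting the score removes this slope by construction. The small slope that remained over all transcripts is thus no separate evidence of a loss of size. A score built from the arrays themselves takes up whatever moves with it, and a difference in maturation and a population difference that lies along the same direction cannot be told apart here.

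Of the 18 transcripts, 2 belonged to the maturation list and 16 did not. That list holds 1700 of all 14528 transcripts (11.7%), a share close to that among the 18. FBtr0165463 read 9.91, 9.77, 9.59 and 10.03 log2 on LB agria, 11.19 and 10.08 on LB organ pipe, 12.26, 11.89, 12.24 and 11.71 on PP agria, and 12.45 and 12.13 on PP organ pipe. PP was higher in every array, by 2.02 (SE 0.18, adjusted p = 5.46e-05) without and 2.73 (SE 0.20, adjusted p = 0.000163) with the score. FBtr0165281 had LB values of 9.74 to 11.40 and PP values of 11.68 to 12.36, with a difference of 2.41 given the score (adjusted p = 0.000248). FBtr0175016 was lower in PP, at 10.64 to 11.04 against 12.69 to 13.58 in LB, by -2.30 without and -1.77 with the score (adjusted p = 0.00129). FBtr0162884 was lower by -0.68 without and -1.28 with the score (adjusted p = 0.0179), and its ranges of 9.89 to 11.02 in LB and 9.47 to 10.22 in PP overlapped. The number of calls given the score moved with single arrays. It was 9 without replicate 2 or 3 of LB on agria or replicate 1 of LB on organ pipe, 11 without replicate 4 of PP on agria, and 32 without replicate 1 of PP on agria.

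The direction of the transcripts called given the score was shared with part of the other stages. All 18 had the same sign of PP minus LB at 3, 6 and 18 days, and 7 (38.9%) had it at all 12 other stages from egg to 24 days. In early pupae 12 of the 18 had it, and in newly eclosed females 14. Over all transcripts the sign was shared by 68.1% at 3 days, 69.5% at 6 days and 71.8% at 18 days. In early pupae it was shared by 53.6% of all transcripts and in newly eclosed females by 41.8%. The share with the same sign at all 12 other stages was 1.16% over all transcripts. Over the 4441 called without the score it was 2.86%. FBtr0165463 was higher in PP at each of the 12, by 0.54 in eggs to 2.95 at 3 days, and FBtr0165281 by 0.44 in eggs to 2.62 at 3 days. FBtr0175016 was lower in PP at 11 of 12, from -0.26 in first-instar larvae to -2.33 at 18 days, and 0.40 higher in late pupae. FBtr0167365, which was not called given the score (adjusted p = 0.134), was lower at all 12, from -0.34 to -3.39.

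On agria alone 750 transcripts (5.16%) were called by limma, 225 higher and 525 lower in PP, and on organ pipe alone 258 (1.78%), 25 higher and 233 lower. FBtr0174470 led on agria with a difference of 4.51 (SE 0.77, adjusted p = 0.00682), and FBtr0166499 also reached 4.51 (SE 1.05, adjusted p = 0.0326). On organ pipe FBtr0166496 was higher in PP by 2.31 (SE 0.53, adjusted p = 0.049) and FBtr0166867 by 2.12 (SE 0.49, adjusted p = 0.0481), while FBtr0167365 was lower by -3.91 and FBtr0167366 by -2.88 (adjusted p = 0.0119 for both). Both counts moved with single arrays. The organ pipe count was 0 without either PP organ pipe array, 10 without replicate 1 and 3115 without replicate 2 of LB on organ pipe. In the last case the balance turned to 2054 higher and 1061 lower in PP. With all 172 arrays for the spread it was 755, 330 higher and 425 lower. The agria count was 177 without replicate 2 of PP, 223, 270 and 279 without replicates 4, 1 and 2 of LB, and 1639 without either LB organ pipe array.

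A dependence of the population difference on diet was not detected at this number of arrays. The interaction called 0 transcripts with limma, with 493 (3.39%) at an unadjusted p under 0.05, and 2 without replicate 1 of LB on organ pipe. The differences on agria and on organ pipe correlated at 0.783 across transcripts and come from separate arrays. Of the 1321 transcripts called when the 8 agria arrays were fitted alone, 1280 (96.9%) had the same sign on organ pipe, against 78.5% of all transcripts. Their median size was 0.76 log2 on agria, where they were called, and 0.73 along the same direction on organ pipe.

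The population difference at 10 days also stood out from that at the other adult ages. In a fit of all adult arrays, PP and LB differed in 5098 transcripts (35.1%) at 10 days. Newly eclosed females differed in 1933 (13.3%), 3-day females in 78 (0.537%) and 6-day females in 31 (0.213%). For 14-day females the count was 30 (0.206%), for 18-day females 164 (1.13%) and for 24-day females 2 (0.0138%). Group sizes differ between ages, so these counts are not equally sensitive. In the test of the difference itself, 2530 transcripts (17.4%) had another population difference at 10 days than over the mean of the 6 other adult ages, 1178 more positive and 1352 more negative. With all 172 arrays for the spread this count was 911, and after centring each array the balance turned to 1661 and 1357. Against 6 days alone 41 (0.282%) passed, 7 more positive and 34 more negative, with 2155 at an unadjusted p under 0.05. With all 172 arrays for the spread 19 passed, and the balance turned to 15 more positive and 4 more negative.

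FBtr0163948 differed most from 6 days, by 3.35 (SE 0.76, adjusted p = 0.0302). At 10 days it read 8.81 to 9.19 log2 on 5 LB arrays, 11.57 on replicate 2 of LB on organ pipe and 11.99 to 12.71 in PP, and at 6 days PP minus LB was -0.65. FBtr0175017 differed by 3.15 (adjusted p = 0.035), with LB values of 9.44 to 12.05 and PP values of 12.43 to 13.35 at 10 days. In the other direction FBtr0172095 and FBtr0168242 both differed by -1.23 (adjusted p = 0.0497 and 0.0302). Against the mean of the other ages FBtr0162155 went furthest down, by -1.48 (SE 0.28, adjusted p = 0.000405), with 12.55 to 13.14 in LB and 10.58 to 12.05 in PP at 10 days. FBtr0163412 followed at -1.43 (SE 0.33, adjusted p = 0.00243), and FBtr0163650 and FBtr0166499 again led upward, by 3.87 and 3.67. For FBtr0163650 PP minus LB was 0.14, 0.35, 1.11, -0.81, -2.95 and 3.85 at 0, 3, 6, 14, 18 and 24 days. For FBtr0166499 it was -0.22, 0.77, 1.05, -1.61, -2.46 and 2.60 at the same ages. Both were thus higher in PP at 24 days too, and lower in PP at 14 and 18 days.

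Small differences of the same sign were nonetheless present at other ages. Of the 4441 transcripts called at 10 days, 91.4% had the same sign of PP minus LB at 6 days, against 69.5% of all transcripts, and 86.5% at 18 days, against 71.8%. Their median difference along the 10-day direction was 0.19 log2 at 6 days, 0.12 at 14 days and 0.25 at 18 days, compared with 0.56 at 10 days. In newly eclosed females the share was 41.3%, against 41.8% of all transcripts, and in third-instar larvae 41.4%, against 42.7%. In eggs it was 77.6%, against 62.7%.

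The steps into and out of day 10 were also taken within each population, whose array numbers at 6 days were 5 in LB and 9 in PP. From 6 to 10 days 67 transcripts (0.461%) changed in LB, 4 upward and 63 downward, and 4062 (28.0%) in PP, 1625 upward and 2437 downward (limma, all adult arrays). The test of whether this step differed between the populations is the comparison with 6 days above, which called 41 transcripts. From 10 to 14 days 380 (2.62%) changed in LB and 1 (0.00688%) in PP. These steps use the same 10-day arrays as the population comparison and are no separate evidence of it. Between PP at 6 days and LB at 10 days 574 transcripts (3.95%) differed, 347 higher and 227 lower in PP. No 10-day array correlated best with the 10-day mean of the other 3 combinations of population and diet. That mean is mostly of the other population, so the population difference at 10 days itself bears on this match. Correlations with it were 0.919 to 0.983, against 0.950 to 0.992 with the best stage mean. LB arrays were closest to means of 3, 6 or 14 days, and PP arrays to means of 18 or 24 days.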

How the data were processed

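Per the labels' protocols, total RNA was made into double-stranded cDNA, labelled with Cy3 and hybridised to NimbleGen arrays. Per the submitters' processing notes, the authors used RMA to make the log2 signals they deposited. Its version and the arrays normalized together were not given in the sources used here. These log2 signals, as deposited, spanned 7.25 to 15.93 and entered the models unchanged. The number of arrays limits the precision. Neither slide nor scan was given, and no batch was fitted.

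limma 3.58.1 in R 4.3.3 (lmFit, eBayes) was fitted to the 12 arrays with population and diet as terms and 9 residual degrees of freedom, and p-values were adjusted by Benjamini-Hochberg over 14528 transcripts. Diet-specific and interaction contrasts came from 4 group means on the same arrays, the maturation direction from 32 arrays of 0 and 6 days, and comparisons of ages from all adult arrays, of which 2 of 4-day PP females entered the spread only. The maturation score is the least-squares position between the 0-day and 6-day means over 1700 transcripts. Stage lists came from stage means of the other arrays, with a minimum of 1 log2.

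In each comparison the 2 called transcripts with the greatest positive and the 2 with the greatest negative difference are named; transcripts given beyond them were chosen after their values were seen. Of the transcript identifiers, 0 were found in the annotation table. Members and lists were chosen with earlier results of these data known. In 1 array of LB on agria (replicate 1) the life-stage tag gives 10 days but 3 other labels give 14. It was kept with the 14-day arrays, and adding it to the 10-day arrays was an alternative. Steps were tested on simulated data. Alternatives covered scaling, arrays for the spread, array weights, dim transcripts, the axis and single arrays left out.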

Additional observations from a re-analysis of the deposited data

Results flagged for a closer look

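Among 48 sets of 4 agria arrays, 4 had 1 array far from the other 3, where chance alone marks about 1 in 20 such sets. Replicate 1 of LB on agria was high for FBtr0163650, at 14.24 log2, and for FBtr0166499, at 14.31, while the other 3 arrays lay between 9.43 and 9.87. Its value for FBtr0170100, 10.63 log2, was also set apart. Replicate 1 of PP on agria was set apart for FBtr0174004, at 10.53 log2. Without LB agria replicate 1 the population difference of FBtr0163650 was 4.83 log2.

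The population difference at 10 days was not the same as at 6 days for 41 transcripts, and not the same as the mean of the other adult ages for 2530, both by a limma test of the difference itself.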

How the results depend on the processing

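The population count was 5342 with the replicate block (same-numbered LB and PP arrays on agria deviated together at correlations of 0.274, 0.336, 0.031 and 0.449, and those on organ pipe at 0.358, a single value since groups of 2 deviate as mirror images; because 1 pair was near 0, the numbers were not taken as pairs) and 2438 without the 2 arrays that stood apart, a setting chosen after seeing the data. It was 18 with the maturation score as covariate. Leaving out single arrays gave 2520 to 4724. The agria count was 2702 with the replicate block and 177 to 1639 without single arrays. The organ pipe count was 421 after quantile normalization, 425 after centring, 755 with all 172 arrays for the spread, 2521 with the replicate block and 0 to 3115 without single arrays. The interaction count was 0 to 2. The share following maturation was 88.9% with all 172 arrays, 76.6% on an axis of 0 to 3 days, 94.8% on an axis of 3 to 6 days (added after seeing the data) and 82.2% to 86.5% without single arrays. The score difference was 0.165 to 0.315 without single arrays, with exact permutation p from 0.00476 to 0.0476, and 0.123 to 0.335 over the other axes, scalings and the array with 2 ages; its p was 0.0312 under the replicate block. With all 172 arrays for the spread, 19 transcripts differed from 6 days, 15 more positive and 4 more negative, and 911 from the mean of other ages. After centring, the latter count was 3018, 1661 more positive and 1357 more negative. The count given the score was 33 on the axis of 3 to 6 days and 9 to 32 without single arrays. Each of FBtr0163650, FBtr0166499, FBtr0167365 and FBtr0169031 kept its direction and its call in 24 of 25 alternatives and lost the call with the score as covariate, with adjusted p of 0.436, 0.536, 0.134 and 0.182. The causes of these changes were not tested. No score difference changed sign under these alternatives, and none of FBtr0163650, FBtr0166499, FBtr0167365 and FBtr0169031 did. The other named transcripts were not followed through all of them. With the score as covariate, FBtr0163649 went from 2.39 to -0.59 log2 and FBtr0174004 from -0.04 to 0.04. The balance of higher and lower calls turned for the comparison with 6 days (all 172 arrays). It also turned for that with the other ages (centring) and on organ pipe (without replicate 2 of LB). Signal over background was not measured, so low signals cannot be told from background.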
